A study of Mus musculus with 2 samples.

Results

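Nuclear receptors are transcription factors, many of which are switched by small fat-soluble ligands such as thyroid hormone, retinoic acid, fatty acids, oxysterols and steroids. Most bind DNA through repeats of a short element and many do so as a dimer with a retinoid X receptor, while steroid receptors bind as homodimers and several orphan receptors bind as monomers. In skeletal muscle the family is known for setting fibre type, mitochondrial content and the choice between fat and sugar as fuel.

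The open chromatin around 42 mouse genes of this family was described, of 21911 protein-coding genes in the GENCODE M21 annotation. The genes were taken by name, not by any measured value, and fell into 6 receptor classes, with 16 genes in NR1, 12 in NR2, 8 in NR3, 3 in NR4, 2 in NR5 and 1 in NR6. DNase-seq, in which the enzyme DNase I cuts accessible DNA and the cut ends are sequenced, was applied to nuclei of the gastrocnemius, the large calf muscle. All material came from female B6CASTF1/J mice, an F1 cross, aged 10 day, with no transgene, treatment or other condition. The only group held 2 libraries, replicates 1 and 2, which the labels call biological replicates, and each was made from a pool of 3 females. Both libraries carry the same donor label, so the separation of the pools is known only from the replicate labels. Since there was no second group, no comparison of conditions and no test was possible. The difference between the libraries is the replicate spread, and values are given for each library side by side.

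Each library had its own peak list, in which a height normalized to sequencing depth by the authors belongs to each peak. A promoter peak is one within 1 kb of any transcription start site (TSS) of a gene, and a distal peak lies farther than that from every protein-coding TSS but within 50 kb of a TSS of the gene. Peaks of the libraries were taken as shared where their overlap made up 50% or more of one of them. Replicate 1 had 114758 peaks and replicate 2 had 26804, with median heights of 1.18 and 1.48. Peaks of replicate 1 were therefore also counted at equal number, as its 26804 tallest, which reached down to a height of 2.71. Peaks within 1 kb of a TSS made up 26.0% of replicate 1 and 64.6% of replicate 2, and 70.3% of replicate 2 peaks were shared against 16.7% of replicate 1 peaks. Read totals are not used here. Of 15 skeletal muscle markers, 9 had a promoter peak in replicate 1 and 6 in replicate 2, against 66.7% and 51.4% of all genes. Actn3, a fast-fibre Z-disc protein, had promoter heights of 14.7 and 5.02, and Ckm, muscle creatine kinase, 2.63 and 3.46. The promoters of Myh1, Myh4, Tnnt3, Myog and Des had no peak in either library. Of 15 neuron markers, 15 had a promoter peak in replicate 1, 13 at equal number, and 7 in replicate 2. Macrophage and hepatocyte markers had none in either library (0 of 10 and 0 of 9 genes). Most of these have CpG-poor promoters, of the low CpG class defined below. In that class 15.8% of genes had a promoter peak in replicate 1 and 4.92% in replicate 2. Shared distal peaks per gene had a mean of 1.40 at macrophage, 1.07 at muscle, 1.07 at neuron and 0.222 at hepatocyte markers, against 0.567 over all genes. In bulk tissue, fewer cells of a type and a weaker signal per cell cannot be told apart.

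The sequences of 3 promoter peaks are shown because they belong to the tallest receptor promoters that had a shared peak. Each is the reference sequence of GRCm38 (mm10), not of the CAST parent, read along the strand of the gene, over the longest stretch of the replicate 1 peak outside annotated exons. Capitals mark bases inside footprints of both libraries, footprints being short stretches within open sites that were cut less than their surroundings. Nr2c2, an orphan receptor also called testicular receptor 4, is shown at chr6:92092181-92092380 on the plus strand. Esrra, estrogen-related receptor alpha, which drives mitochondrial genes, is shown at chr19:6921814-6922020 on the minus strand. Ppard, a fatty acid sensor that drives fat oxidation in muscle, is shown at chr17:28232541-28232699 on the plus strand.
Nr2c2: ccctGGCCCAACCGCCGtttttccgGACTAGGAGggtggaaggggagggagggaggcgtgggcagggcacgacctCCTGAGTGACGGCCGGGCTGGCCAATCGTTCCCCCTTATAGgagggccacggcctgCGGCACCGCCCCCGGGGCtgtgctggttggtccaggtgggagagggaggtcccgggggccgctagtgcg
Esrra: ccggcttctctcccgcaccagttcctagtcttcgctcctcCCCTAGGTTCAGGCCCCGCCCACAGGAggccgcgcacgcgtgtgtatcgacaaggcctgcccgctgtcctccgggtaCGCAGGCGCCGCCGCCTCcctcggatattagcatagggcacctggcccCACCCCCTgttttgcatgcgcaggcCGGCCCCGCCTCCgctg
Ppard: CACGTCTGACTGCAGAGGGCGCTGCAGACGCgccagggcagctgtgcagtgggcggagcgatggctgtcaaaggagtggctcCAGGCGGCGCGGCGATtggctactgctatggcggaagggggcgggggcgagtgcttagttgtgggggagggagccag
Footprints of both libraries covered 81 bases of the Nr2c2 stretch, 66 of the Esrra stretch and 47 of the Ppard stretch. The GC box GGGCGG, a binding element of SP factors, lay wholly within capitals at Nr2c2 and at Esrra, in both on the strand opposite to the one printed. The CCAAT element, bound by the factor NF-Y, lay wholly within capitals at Nr2c2. A muscle E-box CAGCTG, bound by myogenic factors, was present in the Ppard stretch and outside the footprints of either library.

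A further 5 sequences come from distal peaks found in both libraries. They are the replicate 1 peaks whose partner in replicate 2 was tallest at Rara, Rxrg, Ppara, Hnf4a and Nr4a3, and are shown because the distal results below turn on them. All 5 are on the plus strand of GRCm38 (mm10), with capitals as before. Rara encodes a retinoic acid receptor, and its site is chr11:98972321-98972511. Rxrg, the retinoid X receptor enriched in skeletal muscle, has its site at chr1:167645001-167645200. Ppara, the fasting-responsive fatty acid receptor, has its site at chr15:85716141-85716300. Hnf4a is a receptor of liver, gut and kidney, and its site is chr2:163535001-163535200. Nr4a3, a stimulus-induced orphan receptor, has its site at chr4:48043021-48043280.
Rara: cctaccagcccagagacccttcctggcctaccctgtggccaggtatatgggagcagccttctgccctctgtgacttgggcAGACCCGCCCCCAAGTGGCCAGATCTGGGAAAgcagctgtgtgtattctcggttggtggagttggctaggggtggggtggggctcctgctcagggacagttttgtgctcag
Rxrg: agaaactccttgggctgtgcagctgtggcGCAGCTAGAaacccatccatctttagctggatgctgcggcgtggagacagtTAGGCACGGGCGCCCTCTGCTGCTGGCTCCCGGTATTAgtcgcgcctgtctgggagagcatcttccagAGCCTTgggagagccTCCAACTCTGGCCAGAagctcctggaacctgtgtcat
Ppara: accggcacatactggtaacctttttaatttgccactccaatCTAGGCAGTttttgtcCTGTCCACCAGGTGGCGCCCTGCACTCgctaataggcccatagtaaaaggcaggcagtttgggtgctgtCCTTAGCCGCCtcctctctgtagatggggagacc
Hnf4a: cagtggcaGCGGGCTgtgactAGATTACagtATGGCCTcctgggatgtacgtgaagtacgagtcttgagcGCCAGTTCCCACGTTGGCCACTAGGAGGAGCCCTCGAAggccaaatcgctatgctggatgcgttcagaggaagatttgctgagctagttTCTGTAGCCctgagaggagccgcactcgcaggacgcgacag
Nr4a3: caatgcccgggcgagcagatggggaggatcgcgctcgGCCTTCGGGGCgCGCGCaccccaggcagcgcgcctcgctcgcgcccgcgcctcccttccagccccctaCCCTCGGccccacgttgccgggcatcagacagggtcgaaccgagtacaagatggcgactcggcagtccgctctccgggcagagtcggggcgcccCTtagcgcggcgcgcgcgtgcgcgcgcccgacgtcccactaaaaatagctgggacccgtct
The Ppara stretch held a match to the core motif of CTCF, the chromatin loop factor, and all 13 bases of it were in capitals. The GC box of the Rara stretch was in capitals too. The muscle E-boxes at Rara and Rxrg were touched by footprints of replicate 1 and by none of replicate 2.

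A promoter peak was present at 38 of the 42 receptors in replicate 1 (90.5%), against 66.7% of all protein-coding genes. In replicate 2 it was present at 25 (59.5%), against 51.4% of all genes. These same 25 had a peak in both libraries, against 51.0% of genes, so no receptor had one in replicate 2 alone, against 0.461% of genes. At equal number, replicate 1 had a promoter peak at 24 receptors (57.1%; 49.6% of genes), and 17 had one in both lists (40.5%; 44.4% of genes). The share of receptors thus stood above that of all genes in replicate 1 and was close to it once the lists had the same length. Promoters whose peaks were shared by overlap numbered 20 (47.6%; 45.1% of genes). The 4 receptors without a promoter peak in either library (9.52%; 32.8% of genes) were Nr1i2 and Nr1i3, the xenobiotic receptors PXR and CAR of liver, Hnf4a, and Nr2e1, a receptor of neural stem cells. Only Nr2e1 had neither promoter nor distal peaks.

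The receptors had more annotated TSSs than genes at large, a median of 6 against 3, and more CpG-rich promoters, with a median observed over expected CpG of 0.737 against 0.627. All genes were cut into low, middle and high classes of equal size by this ratio, at 0.389 and 0.753, which put 4 receptors in the low, 20 in the middle and 18 in the high class. In the middle class, 95.0% of receptors had a promoter peak in replicate 1 against 86.0% of genes, and 65.0% had one in replicate 2 against 62.4%. In the high class all 18 receptors had one in replicate 1, against 98.3% of genes. There the replicate 2 share was 66.7% of receptors against 87.0% of genes, and the share at equal number in replicate 1 was 66.7% against 85.9%. Receptors with CpG-rich promoters thus had a peak less often than other CpG-rich promoters in both lists of that length, which was not tested.

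**Figure D1:**
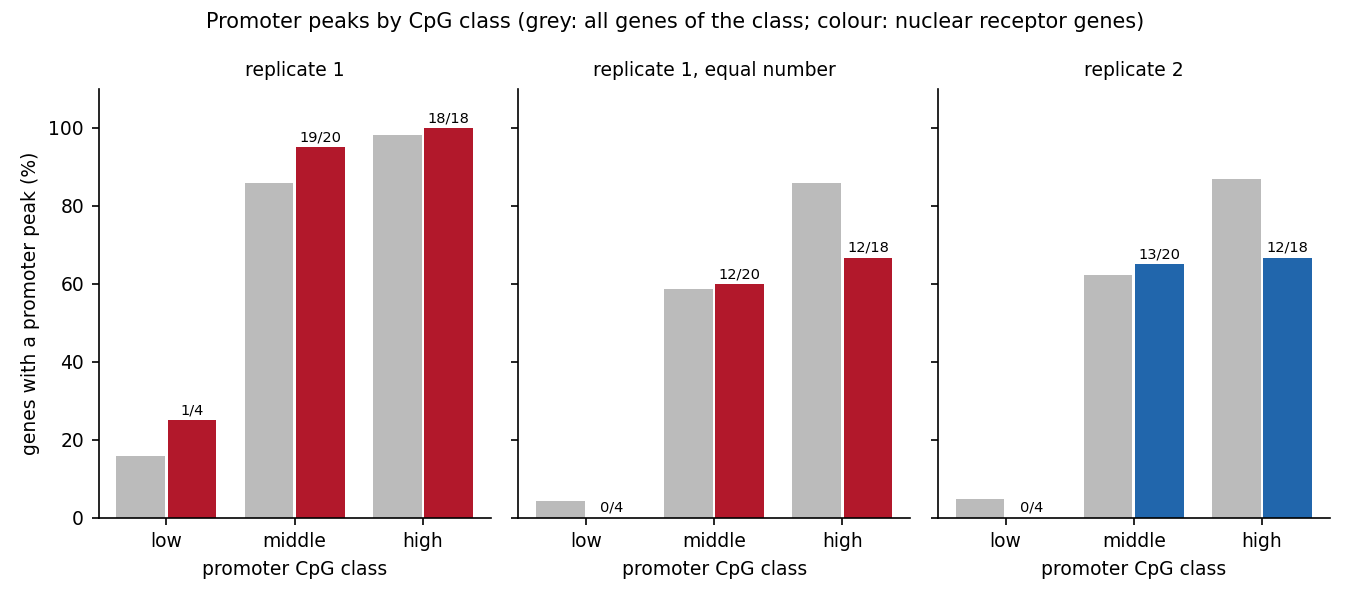
Share of genes with a promoter peak (percent, vertical axis) in classes of promoter CpG ratio (horizontal axis), for the 42 receptors and all protein-coding genes, by peak list. In the high class the receptors stand at 66.7% against 87.0% of all genes in replicate 2.

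The tallest receptor promoter was the same in both libraries. Nr2c2 reached 30.2 in replicate 1 and 6.49 in replicate 2. After it, replicate 1 ranked Esrra (24.3), Rxrb (21.5) and Ppard (17.3), and replicate 2 ranked Nr3c1 (3.95), Ppard (3.41) and Esrra (3.39). The orders below the first place differed between the libraries, so they are given separately. Over the 25 receptors with peaks in both, the median height was 6.07 in replicate 1 and 1.90 in replicate 2, a median log2 ratio of 1.53. For all 11169 genes of that kind the medians were 8.27 and 2.04 and the median log2 ratio was 1.97. Replicate 1 was higher at 20 of the 25 receptors and at 94.5% of these genes. The 5 exceptions were Rarb, Pparg, Vdr, Nr2f2 and Nr5a1, whose heights were at most 2.23 in both libraries.

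**Figure D2:**
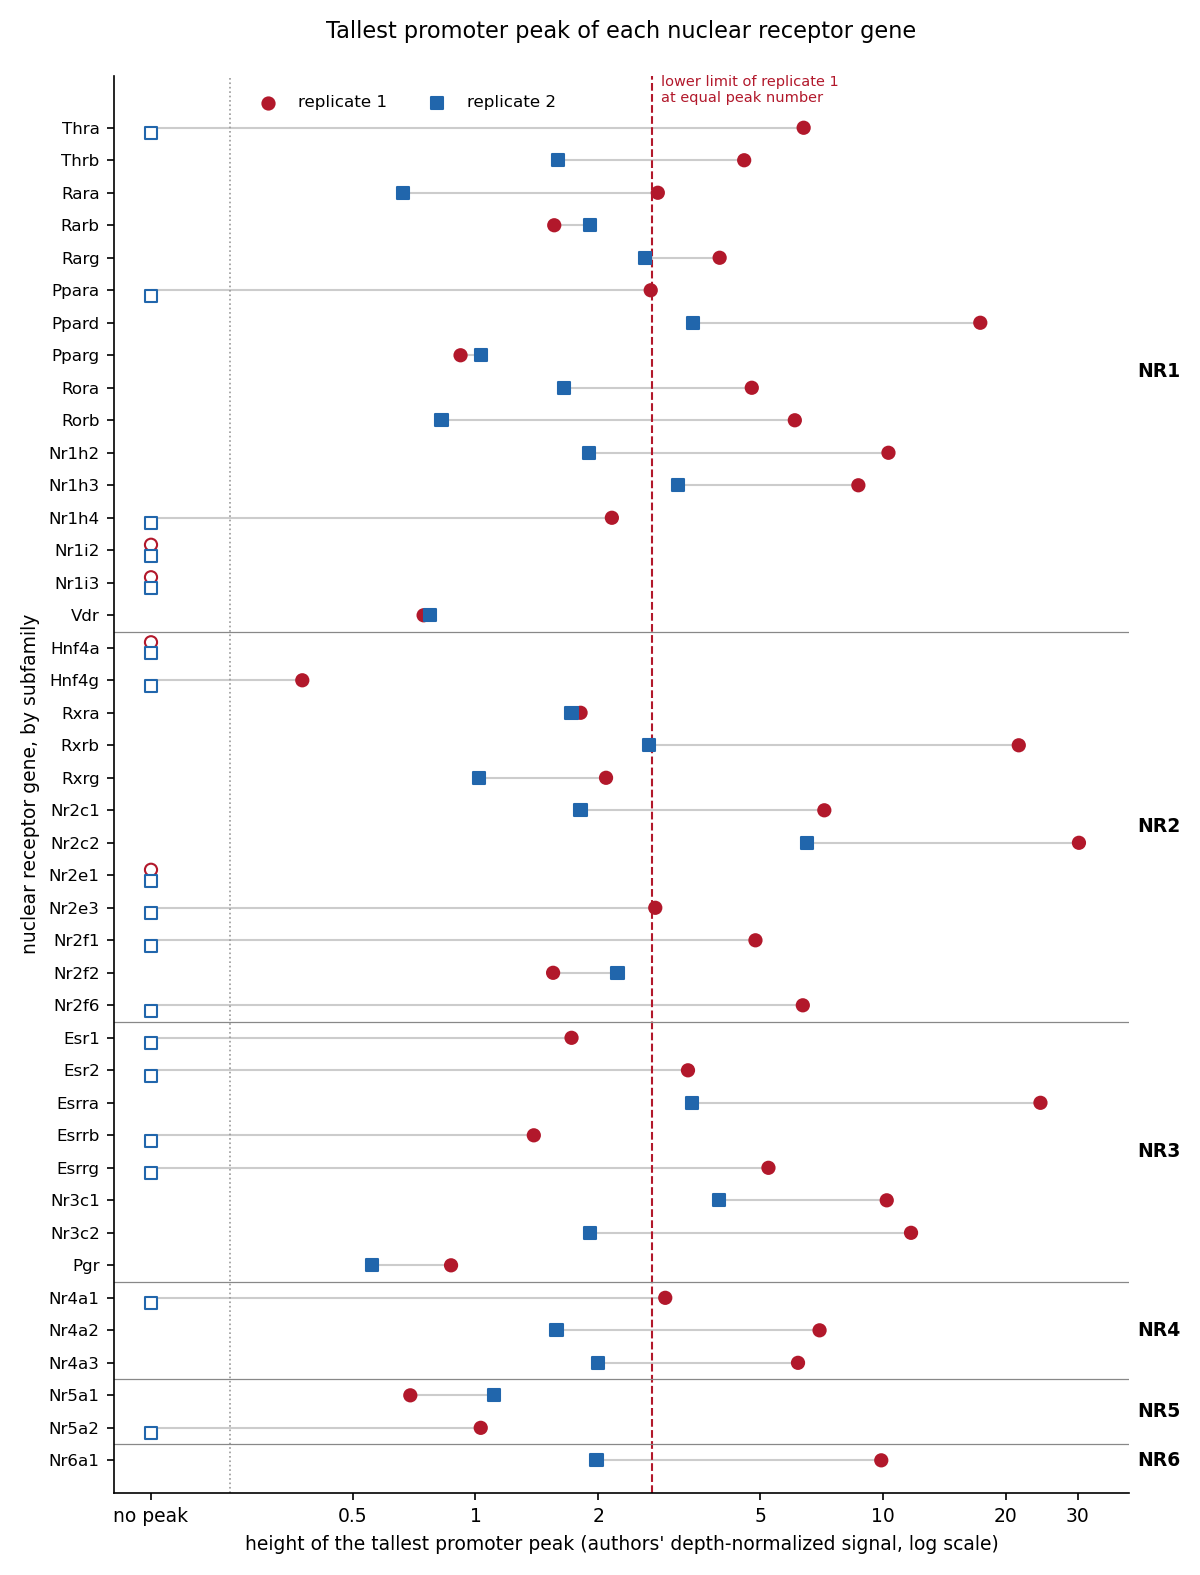
Height of the tallest promoter peak (authors' depth-normalized signal, log axis) of each of the 42 receptors, ordered by class, with a point for each library. Nr2c2 is highest in both, at 30.2 and 6.49, and 17 receptors lack a point for replicate 2.

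Among thyroid hormone and retinoic acid receptors, Thrb, Rara, Rarb and Rarg had a promoter peak in both libraries and Thra in replicate 1 alone. Thra, the main thyroid hormone receptor of muscle, had 5 promoter peaks of up to 6.38 in replicate 1 and none in replicate 2. In the interval file of replicate 2 the lowest FDR there was 5.29e-03, whereas 25 receptors reached an FDR under 0.001 near a TSS in that library (59.5%; 52.9% of genes). Thrb had heights of 4.56 and 1.59. The peak of 4.56 lay 981 bp from a TSS, just inside the 1 kb limit. Rarg had 3.97 and 2.61, both within 1 kb of the TSS of Rarg-202. That TSS is 10.9 kb from the most upstream start, where replicate 1 alone had a peak of 0.925. The 2.61 peak of replicate 2 reached upstream and overlapped distal peaks of replicate 1 with heights of 0.949 and 0.877. Rarb had 1.56 and 1.91, at starts 244 kb from the most upstream one, which had no peak in either library. Rara was peaked at different starts, with 2.80 in replicate 1 and 0.665 in replicate 2 at starts 9.89 kb apart. In both libraries, Rarb and Rarg thus had peaks within 1 kb of the same downstream start, and Rara did not.

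The fatty acid receptors differed from each other. Ppard had 17.3 and 3.41. Ppara had 2.69 in replicate 1, just under the 2.71 of the equal-number list, and none in replicate 2, where the lowest FDR was 1.41e-03. Pparg, the receptor that drives fat cell formation, had 0.919 and 1.03 at its first starts, and a peak of 0.489 in replicate 1 alone at the start of Pparg-201, 61.1 kb downstream. Of the adipocyte markers, 6 of 10 had a promoter peak in replicate 1 and 1 of 10 in replicate 2, against 66.7% and 51.4% of all genes. Most of these markers are in the low CpG class, where the shares of genes were 15.8% and 4.92%. The part of these markers in the Pparg values was not tested.

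Rora, a receptor of the clock that also acts in muscle lipid use, had 4.76 and 1.65 at its most upstream start. A second open promoter lay 636 kb downstream, with 3.23 and 1.61, and starts between them had 1.69 and 0.879, and 0.555 and none. Rora and Nr3c1 were the 2 receptors with the most promoter peaks in replicate 2, with 7 and 6 peaks. The oxysterol receptors Nr1h2 and Nr1h3 had 10.3 and 8.69 in replicate 1 and 1.90 and 3.14 in replicate 2. The Nr1h3 peak was also within 1 kb of a TSS of Acp2, on the opposite strand, so it cannot be given to either gene alone. Vdr, the vitamin D receptor, had 0.746 and 0.772, at different starts in the 2 libraries. Nr1h4, the bile acid receptor, had 2.16 in replicate 1, with no interval listed near it in replicate 2.

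In class NR2, which holds the dimer partners, Rxra had 1.81 and 1.72, and Rxrb had 21.5 and 2.66. The Rxrb peaks did not overlap by the 50% needed, and that peak of replicate 1 was also within 1 kb of a TSS of Slc39a7. Rxrg had 0.764 and 1.02 at its first start. At its second start, 19.9 kb downstream, it had 2.09 in replicate 1 and none in replicate 2. At the first start an E-box CAGCTG lay 7 bp past a TSS, at chr1:167598485-167598490. It was in footprints of both libraries when these were widened by 5 bp on each side. Nr2c1, the close relative of Nr2c2, had 7.17 and 1.81. The 3 COUP-TF receptors, developmental repressors, split between the libraries. Nr2f2, which acts in veins and muscle progenitors, had 1.55 and 2.23, whereas Nr2f1 had 4.86 and Nr2f6 6.35 in replicate 1 and none in replicate 2. Nr2e3, a photoreceptor regulator, had 2.76 in replicate 1, just inside the equal-number limit, and none in replicate 2. Another of its peaks, of height 1.44, lay 1002 bp from the TSS and so just outside the promoter window. Hnf4g had 0.376 and none.

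Class NR3 holds the steroid receptors and the estrogen-related receptors. Nr3c1, the glucocorticoid receptor, had 10.2 and 3.95, the tallest of its class in replicate 2, with 7 and 6 promoter peaks of which 6 were shared. Nr3c2, the mineralocorticoid receptor, had 11.7 and 1.91 at its second set of starts and 1.22 and 1.44 at its first, 2.76 kb upstream. Pgr, the progesterone receptor, had 0.871 and 0.557, which did not overlap. Esr1 and Esr2, the estrogen receptors, had 1.72 and 3.32 in replicate 1 and none in replicate 2. At Esr1 that peak lay at starts 98.2 kb from the most upstream one, which had no peak. Of the estrogen-related receptors, which act with PGC coactivators on mitochondrial genes, Esrra had 24.3 and 3.39. Esrrb had 1.39 and Esrrg 5.23 in replicate 1, and neither had a promoter peak in replicate 2. The Esrrg height of 5.23 was at a start 389 kb downstream of the first, which had 0.907. The interval FDR of replicate 2 reached 1.29e-03 at Esrrg, and none was listed at Esrrb.

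The NR4A receptors are induced within minutes of stimulation or exercise and need no known ligand. Nr4a1 had 2.92 in replicate 1 and none in replicate 2. Nr4a2 had 6.98 and 1.58 at its first starts, with 4.83 and 1.44 at others 8.96 kb away. Nr4a3 had 6.18 and 2.00. Nr4a2 and Nr4a3 were thus open in both libraries. In class NR5, Nr5a1, the regulator of steroid-producing glands, had 0.692 and 1.11 at different starts, and Nr5a2, of liver and pancreas, had 1.03 and none. Nr6a1, a germ cell and embryonic repressor, had 9.89 and 1.98.

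At equal number, 7 receptors had a promoter peak in replicate 1 alone (16.7%; 5.25% of genes), namely Thra, Nr2e3, Nr2f1, Nr2f6, Esr2, Esrrg and Nr4a1. In replicate 2 alone there were 8 (19.0%; 7.08% of genes), namely Rarb, Pparg, Vdr, Rxra, Rxrg, Nr2f2, Pgr and Nr5a1. With the whole list of replicate 1, 13 receptors had a peak in replicate 1 alone (31.0%; 15.7% of genes). The 6 of these not named above at equal number were Ppara, Nr1h4, Hnf4g, Esr1, Esrrb and Nr5a2. In each of these counts the share of receptors was above that of all genes.

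By known tissue role, the 10 receptors of muscle metabolism all had a promoter peak in replicate 1, against 66.7% of all genes. In both libraries 5 of them had one (Ppard, Rora, Rxrg, Esrra and Nr4a3), a share close to the 51.0% of all genes. All 10 are in the middle or high CpG class, where 86.0% and 98.3% of genes had one in replicate 1. In replicate 2 these class shares were 62.4% and 87.0%. The 6 receptors of liver and gut (Nr1h4, Nr1i2, Nr1i3, Hnf4a, Hnf4g and Nr5a2) had none in replicate 2 and none at equal number, against 51.4% and 49.6% of all genes. Of these 6, Nr1h4, Nr1i2, Nr1i3 and Hnf4a are in the low CpG class, where the shares of genes were 4.92% and 4.39%. In the whole list of replicate 1, 3 of the 6 had one. Of the 4 receptors of the nervous system, Rorb had 6.07 and 0.825, Nr4a2 was in both, Nr2f1 in replicate 1 alone and Nr2e1 in neither. The neuron markers had promoter peaks at 15 of 15 genes in replicate 1 and 7 in replicate 2. They had a median of 2.00 distal peaks per gene at equal number, with up to 23 at a single gene, and a median of 1.00 in replicate 2. Their part in the values of the nervous system receptors was not tested.

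The starts of the 42 genes, split wherever neighbouring starts were more than 500 bp apart, formed 149 groups, and 40 receptors had more than 1 group. A peak lay at 82 of these groups in replicate 1 and 41 in replicate 2, with 37 in both. A peak within 1 kb of more than 1 group counted at each, as at Nr2c2, Esrra and Thra in replicate 1. Most groups were thus without a peak in replicate 2. The same count was not made over all genes, so it describes the receptors alone.

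Distal peaks were present near 40 receptors in replicate 1 (95.2%; 84.0% of genes), 26 at equal number (61.9%; 44.3%) and 25 in replicate 2 (59.5%; 40.1%). A shared distal peak was present near 22 (52.4%; 35.4% of genes), and 2 or more near 11 (26.2%; 13.0% of genes). The mean number per receptor was 7.83 in replicate 1 against 4.93 over all genes, 1.88 against 1.02 at equal number, and 1.43 against 0.826 in replicate 2. The receptors thus had more distal peaks per gene than all genes did in each list, a difference that was not tested. The window counted is wider for genes with more starts or starts farther apart. Receptors had a median of 6 TSSs against 3 over all genes, and the part of this in the difference was not tested. As distinct sites there were 326 peaks in replicate 1, 79 at equal number, 60 in replicate 2 and 39 shared. Of the 39 shared sites, 18 lay in an intron of a receptor, 14 were intergenic, and the receptor was the nearest protein-coding gene for 26 (66.7%). A TSS of a long noncoding RNA gene lay within 1 kb of 6 (15.4%; 6.25% of all shared distal peaks).

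**Figure D3:**
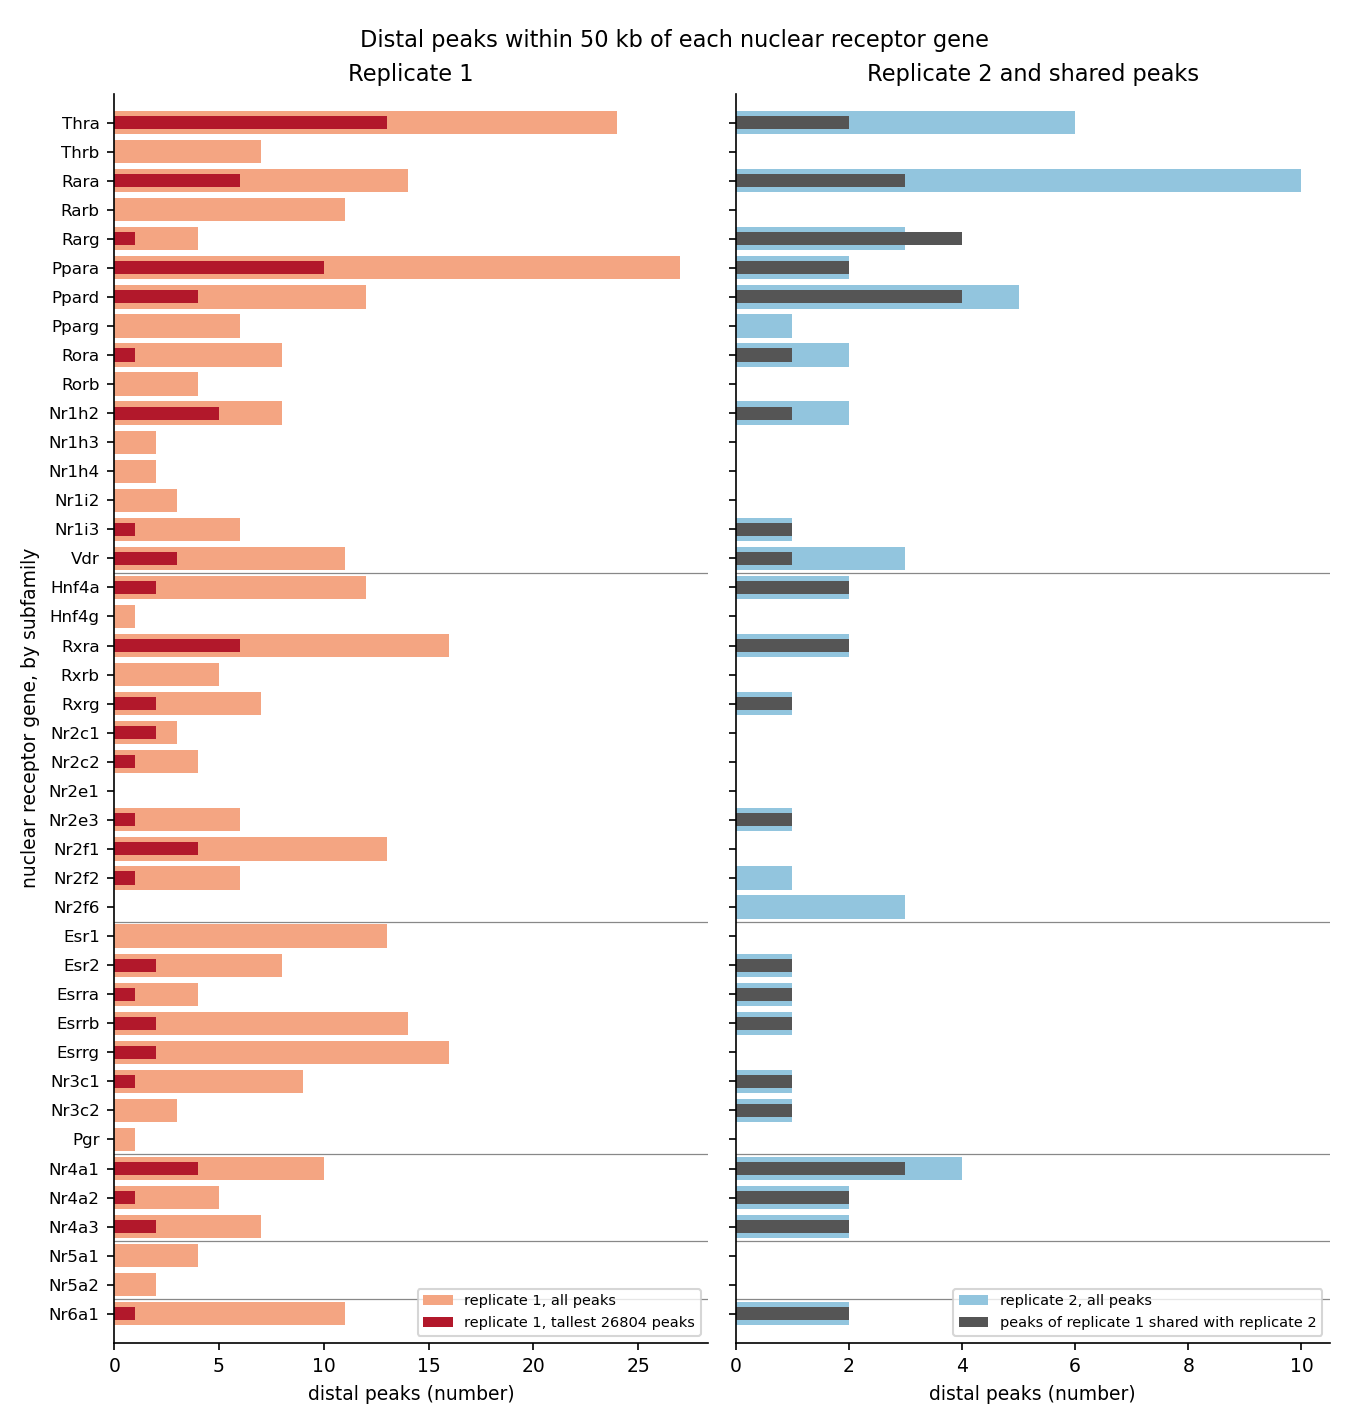
Number of distal peaks within 50 kb (horizontal axis) of each of the 42 receptors, by peak list. Ppara and Thra have the most in replicate 1, with 27 and 24, and Rara the most in replicate 2, with 10.

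The muscle metabolic receptors had a mean of 12.9 distal peaks in replicate 1, 4.10 at equal number and 2.40 in replicate 2. For the 15 neuron markers these means were 14.0, 4.20 and 1.33, and over all genes 4.93, 1.02 and 0.826. Of the 10 muscle metabolic receptors, 9 had a shared distal peak. Rxrg, Esrra, Esrrb and Rora had 1 each and Esrrg had 0. In replicate 1 the most distal peaks were near Ppara (27), Thra (24), Rxra and Esrrg (16 each), Rara and Esrrb (14 each) and Esr1 and Nr2f1 (13 each). At equal number Thra had 13, Ppara 10, Rxra and Rara 6, Nr1h2 5, and Ppard, Nr2f1 and Nr4a1 4. In replicate 2 Rara had 10, Thra 6, Ppard 5, Nr4a1 4, and Rarg, Vdr and Nr2f6 3. Thra, Rara and Nr4a1 were thus among the leading receptors in every list but for Nr4a1 in the whole list of replicate 1, while Nr2f1, Esrrg and Esr1 had no distal peak in replicate 2.

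At Thra, both shared sites lay beyond the gene. Distances here and below are from the nearest start of the receptor gene. The site 20.4 kb downstream, in an intron of the clock receptor gene Nr1d1, had heights of 6.29 and 2.82. Its replicate 2 peak lay 1006 bp from a TSS of Nr1d1, just outside the promoter window of that gene. The site 33.5 kb downstream, for which Msl1 was the nearest gene, had 7.72 and 4.58, the tallest distal peak near any receptor in replicate 2. It held an E-box CAGCTG in footprints of both libraries, widened by 5 bp on each side, at chr11:98787072-98787077. Thra thus had no promoter peak in replicate 2 while both distal sites were open there. It was the nearest gene for 0 of its 6 distal peaks in that library.

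At Ppara, the shared site 18.8 kb upstream whose sequence is shown had heights of 4.26 and 2.47. Another, 25.2 kb upstream, had 1.56 and 1.99. The tallest distal peak near Ppara in replicate 1, 14.0 in an intron of Ppara and 20.9 kb downstream of the nearest start, had no partner. Like Thra, Ppara had distal but no promoter peaks in replicate 2. At Ppard the shared sites were 8.43 kb upstream, with 8.16 and 1.39, and 6.44 kb upstream, with 6.00 and 1.35, both inside the neighbouring gene Def6. Those downstream, at 3.61 kb and 15.8 kb, had 1.26 and 1.40, and 5.69 and 2.74.

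The retinoid receptors had shared sites as well. The Rara site shown above, in an intron and 12 kb from the nearest start of Rara, had 4.90 and 2.74. Another intronic site had 3.20 and 0.825, and a site in an exon of Cdc6 had 1.64 and 1.02. The tallest distal peak at Rara in replicate 1, 9.33, had no partner in replicate 2. Rarg had 4 shared sites, of which an exonic site in the integrin gene Itgb7 had 2.40 and 1.67 and an intronic site 3.00 and 1.81. The other two overlap each other, with heights of 0.949 and 0.877, and have the same partners in replicate 2, a promoter peak of 2.61 and a distal peak of 2.33. Rxra had 10.8 and 1.61 in an intron and 3.84 and 2.19 at 31.9 kb downstream. The Rxrg site shown above, 26.8 kb downstream, had 4.38 and 2.69.

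The NR4A genes, all in the group with 2 or more, had their shared sites mostly upstream of the nearest start. Nr4a3 had 12.1 and 1.95 at 1.71 kb and 8.20 and 3.18 at 2.00 kb upstream, the second of which is shown. Nr4a1 had 3 shared sites. They had 9.88 and 2.15 at 7.83 kb upstream, 3.07 and 2.58 at 32.3 kb upstream, and 5.29 and 1.75 at 43.2 kb downstream. Nr4a2 had 2.87 and 1.61 in one of its introns, 1.82 kb upstream of the nearest start. Nr4a1, without a promoter peak in replicate 2, thus had 4 distal peaks there, and was the nearest gene for 1 of them.

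Hnf4a, whose promoters had no peak, had shared intronic sites with 5.29 and 2.41 and with 4.67 and 1.34, upstream of the nearest start by 11.7 kb and 14.7 kb. Nr6a1 had intronic sites with 1.31 and 0.590 and with 0.668 and 1.07. Receptors with a single shared site included Nr3c1, with 5.82 and 0.868 in an intron, Esr2 with 8.38 and 1.31, Esrrb with 3.75 and 1.33, Rora with 1.22 and 0.997, and Vdr with 2.03 and 1.1. Tall distal peaks of replicate 1 without a partner included 14.4 at 1.95 kb upstream of Nr2f1. It lay 184 bp from the TSS of the long noncoding RNA gene A830082K12Rik. Others, both intronic, were 11.3 at 16.7 kb downstream of the nearest start of Esrrg and 10.3 at 1.28 kb upstream of that of Nr2f2. Nr1i3 had 4.0 and 1.89 in an intron of Tomm40l.

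**Figure D4:**
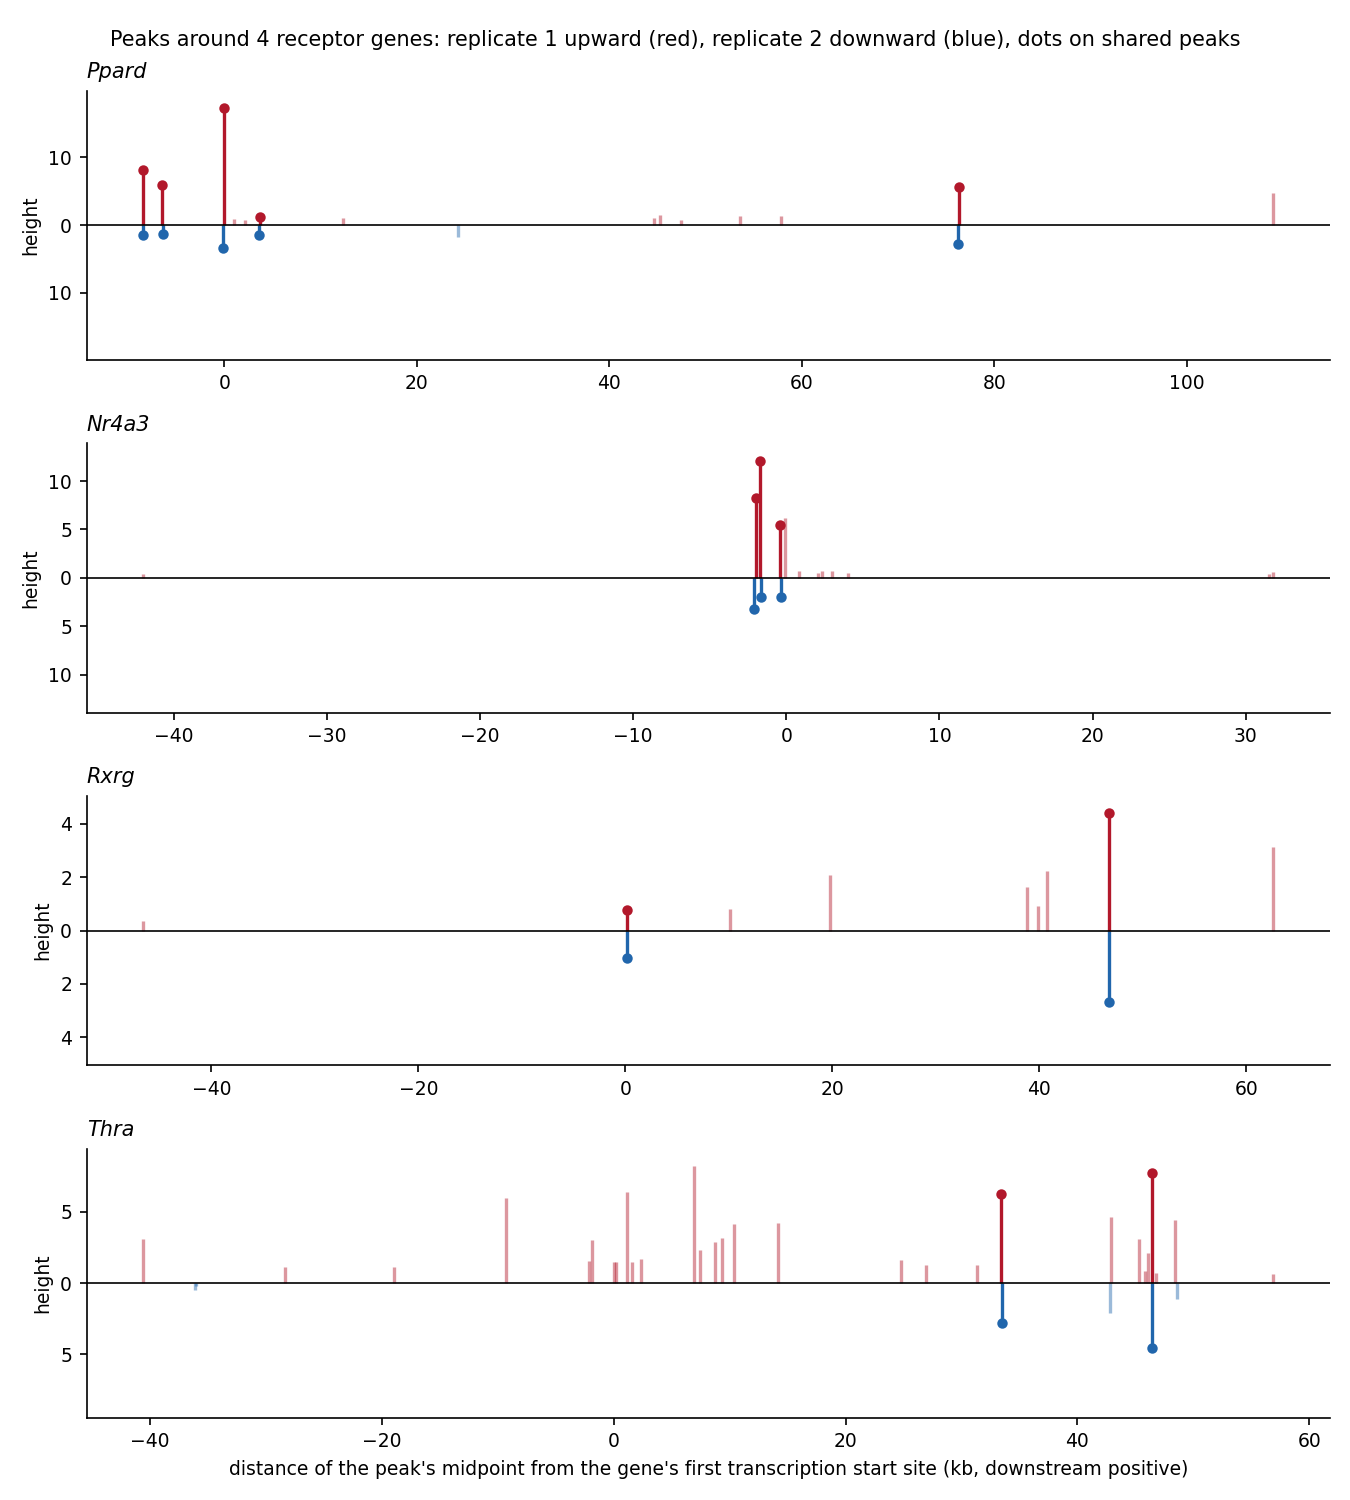
Peaks around Ppard, Nr4a3, Rxrg and Thra, with distance from the first TSS in kb (horizontal axis) and peak height (vertical axis), replicate 1 drawn upward and replicate 2 downward. Dots mark shared peaks, such as those of heights 7.72 and 4.58 beyond Thra.

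A footprint inside a promoter peak was present in both libraries at 24 receptors (57.1%; 48.9% of genes). The promoter peaks of receptors held 3.14 footprints each in replicate 1 and 3.30 in replicate 2, against 3.11 and 3.28 over all genes. Their distal peaks held 2.61 and 2.35, against 2.53 and 1.95. Per 100 bp of distal peak the numbers were 1.40 and 1.02, against 1.43 and 1.02. The receptor distal peaks of replicate 2 were wider, with a median of 220 bp against 164 bp. Of 151 footprints in shared promoter peaks of receptors in replicate 1, 45 (29.8%) overlapped one of replicate 2, against 37.3% over all genes, and of 135 in shared distal peaks 57 (42.2%), against 45.1%. In the other direction, 53 of 158 replicate 2 footprints in shared promoter peaks (33.5%; 48.4% over all genes) and 69 of 105 in shared distal peaks (65.7%; 69.6%) overlapped one of replicate 1. At shared receptor promoters most footprints of either library had no counterpart in the other, while at shared distal sites most of those of replicate 2 had one.

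Matches to the CTCF core motif lay in footprints of both libraries at distal sites of 5 receptors. They are shown because they were the longest motif matches that both libraries footprinted, each read along its own strand of GRCm38 (mm10). The Esrrb match is chr12:86402926-86402938 on the minus strand and the Nr1i3 match chr1:171220999-171221011 on the minus strand. The Ppara match is chr15:85716202-85716214 on the plus strand, the Ppard match chr17:28309011-28309023 on the minus strand and the Vdr match chr15:97952618-97952630 on the minus strand.
Esrrb: CCACCAGAGGGCG
Nr1i3: CCACCAGGGGGCA
Ppara: CCACCAGGTGGCG
Ppard: CCAGCAGGTGGCA
Vdr: CCACCAGAGGGCG
The Esrrb and Vdr matches have the same letters. CTCF matches lay in the central 150 bp of 6.75% of receptor distal peaks in replicate 1 against 6.41% of all distal peaks, and of 6.67% against 14.1% in replicate 2. Of the 39 shared distal sites, 6 (15.4%) held one, against 21.3% of all 5220 shared distal peaks, and 11 (28.2%) held the muscle E-box CAGCTG, against 15.5%. The E-box was in 26.7% of receptor distal peaks of replicate 2, 16 of 60, against 14.6% of all distal peaks there, and in 16.6% against 17.9% in replicate 1.

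The receptors' own DNA element AGGTCA was found more often in receptor promoter peaks than in all promoter peaks in replicate 1, and less often in receptor distal peaks than in all distal peaks in both libraries, differences that were not tested. Searched on both strands, it was in the central 150 bp of 15 of 124 receptor promoter peaks in replicate 1 (12.1%; 5.32% of all promoter peaks) and of 3 of 57 in replicate 2 (5.26%; 5.56%). In distal peaks it was in 13 of 326 (3.99%; 7.98%) and 1 of 60 (1.67%; 9.11%). Direct repeats of it with 1, 2, 4 or 5 bases between and inverted repeats with 1 or 3 had no match in the central 150 bp of a receptor peak, and each was in at most 0.0270% of all peaks of a kind. The monomer element AAAGGTCA includes AGGTCA. It lay in a footprint of replicate 1, widened by 5 bp on each side, at the second promoter of Rxrg, at chr1:167618175-167618182. In RefSeq promoter windows of 300 bp of the same build, available for 38 of the 42 genes, AGGTCA was in 10 of 59 windows (16.9%), against 16.3% of 32851 windows. The share in promoter windows was thus near that of all genes.

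Genes that serve the receptors were described from lists of coregulators, ligand supply and targets. All 16 coregulators had a promoter peak in both libraries, against 51.0% of all genes. Most of them are in the high CpG class, where 98.3% of genes had a promoter peak in replicate 1 and 87.0% in replicate 2. Ncoa3, a coactivator, had 9.32 and 1.75 with 4 shared distal peaks. Ppargc1b and Ppargc1a, coactivators of mitochondrial genes, had 4.11 and 2.30, and 0.567 and 1.04. Of 10 genes of steroid and vitamin D supply, 7 had a promoter peak in both. These were Hsd11b1, Srd5a1 and the chaperone genes Hsp90aa1, Hsp90ab1, Fkbp4, Fkbp5 and Ptges3. Fkbp5, a chaperone of the glucocorticoid receptor, had 18.1 and 2.78 with 4 shared distal peaks. Cyp27b1, which activates vitamin D, had none in either library. The coregulators and chaperone genes thus had promoter peaks in both libraries and the other supply genes in part.

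Of 17 genes of thyroid hormone and retinoid supply, 6 had a promoter peak in both libraries, 5 in replicate 1 alone and 6 in neither. Over all genes these shares were 51.0%, 15.7% and 32.8%. The 17 genes are spread over the low, middle and high CpG classes. Dhrs3, a retinal reductase, had 1.81 and 1.46, and Aldh1a2, a retinoic acid synthase, 1.61 and 1.31. Those with none included Dio2, which activates thyroid hormone, Crabp1, Crabp2, Cyp26a1 and Cyp26b1. Of 20 known targets, 10 had a promoter peak in both, against 51.0% of all genes, 4 in replicate 1 alone and 6 in neither. Per1, a clock gene induced by glucocorticoids, had 17.3 and 2.50 with 12 shared distal peaks. Klf9, a target of glucocorticoid and thyroid hormone receptors, had 11.3 and 3.26, and Srebf1, a target of oxysterol receptors, 17.9 and 5.24. The fat oxidation genes Cpt1b and Ucp3, the calcium pump gene Atp2a1 and Cidec had none in either library. All of these are in the low CpG class. Among 5 other receptors, Nr1d1 had 11.6 and 2.80 and Nr1d2 19.8 and 3.38, while Nr0b2 had none.

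**Figure D5:**
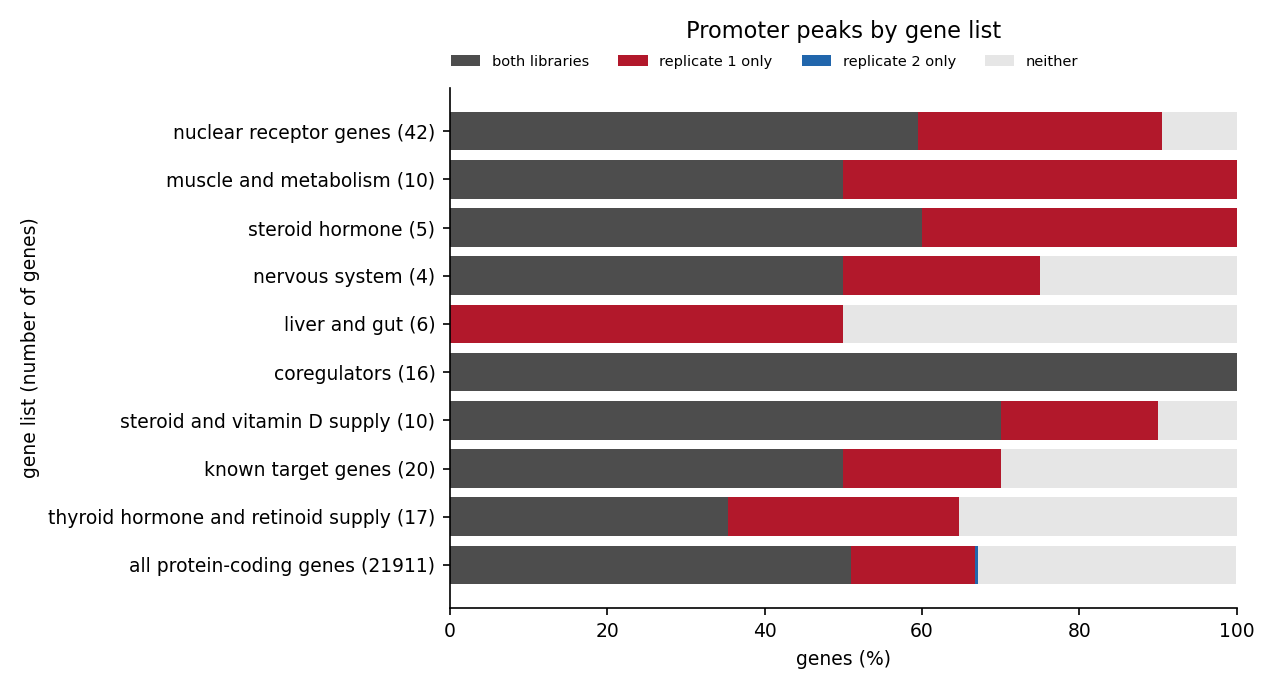
Share of genes (percent, horizontal axis) with a promoter peak in both libraries, in replicate 1 alone or in neither, for receptor roles and for the lists of genes that serve them. All 16 coregulators are in the first class, and the 6 receptors of liver and gut have no gene in it.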

How the data were processed

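The members and lists were chosen with earlier results of these data known. The authors deposited for each library, on mm10, peak lists, intervals with an FDR and footprints. Peak height is a signal normalized to depth, per the deposited file descriptions, on a scale they do not state. The FDR is a corrected p-value that the authors gave, of at most 0.05. The deposited footprint score is 0.01 in every row, so footprints were not ranked. Of the 2 peak lists of each library the one with fewer peaks was used. The names of the aligner and callers were not given in the sources used here. Instrument models are labelled for replicate 1 alone. Heights were multiples of 0.00597 in replicate 1 and 0.0107 in replicate 2, and read totals are unknown here. Peaks were assigned to GENCODE M21 protein-coding genes by edge distance, with Python 3.11.15, numpy 2.4.6, pandas 2.3.3, pysam 0.24.0 and matplotlib 3.10.9. Footprint motifs were searched with 5 bp on each side. On simulated data, overlaps differed from bedtools 2.31.1 in 0 of 162 pairs, and 380 of 380 planted motifs were found. Named receptors were the tallest per class, those in a single library, those with most or shared distal peaks, those without promoter peaks and those known in muscle. From each list of other genes up to 4 with and 4 without promoter peaks were named, by shared distal peaks, and some genes that this rule names are not reported here. Alternatives changed the list, height, windows, overlap and searched width.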

Additional observations from a re-analysis of the deposited data

How the results depend on the processing

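No paired analysis was possible because there was 1 group. Of 96 alternative values, 70 stayed within 1.5 times the reported ones. Counts of receptors with promoter peaks moved past that only when a library was left out, and counts of distal sites moved with list length and window, for which the counts below are of distinct sites in replicate 1, replicate 1 at equal number, replicate 2 and both. With the longer deposited list they were 519, 156, 138 and 86. With the taller 50% of each list they were 186, 29, 24 and 20. Within 20 kb they were 158, 41, 37 and 25, and within 100 kb 561, 127, 110 and 68. With promoters taken to 2 kb, 25 distal sites were shared. With a library left out, so that sharing cannot be asked, receptors with a promoter peak ranged from 25 to 38 in both the peak and the overlap count, those with a promoter footprint from 24 to 38, and distal sites from 60 to 326. With whole peaks searched, AGGTCA was in 20 distal peaks of replicate 1, 8 promoter peaks and 4 distal peaks of replicate 2, and CAGCTG in 12 promoter peaks of replicate 2. A receptor without a peak in replicate 2 was not detectable in that list, which does not show closed chromatin. Why that list is shorter was not tested. Heights have no replicate error within a library.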

Other observations

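The longest distances between open starts of a receptor gene were 636 kb at Rora, in both libraries, and 389 kb at Esrrg, in replicate 1. In 3 cases a distal peak of replicate 1 counted at both Nr5a1 and Nr6a1, whose 50 kb windows overlap. The tallest promoter peak was also within 1 kb of a TSS of another gene at 2 of 38 receptors in replicate 1 (5.26%; 18.8% of genes).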
